A study of Mus musculus with 2 samples.

Results

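Glucose uptake, glycolysis, pyruvate entry into mitochondria and the TCA cycle were examined through 36 genes, chosen as a list of pathway members and found by the RefSeq accession that the array gives for each probe. All 36 had at least 1 named probe, out of 20653 named genes with a measured spot. MIN6 is a cell line from an insulinoma of a transgenic C57Bl/6 mouse, used here at passages 15 to 20. Cells had been transduced with lentivirus made from pLVX-IRES-ZsGreen carrying mouse FTO (the FTO array) or from the same vector without it (the control array), so both cultures received a virus and the green reporter. Cells were checked for fluorescence 48 h after transduction. The labelled RNA of each culture was read on 1 one-color Agilent array. With 1 array per condition no test across samples, no standard error and no p-value can be given, and every difference is that between a pair of arrays.

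Pancreatic β cells sense glucose through its metabolism. Glucose enters by facilitative transporters, is phosphorylated, and is split by glycolysis to pyruvate, which mitochondria oxidize through pyruvate dehydrogenase or carboxylate through pyruvate carboxylase. The ATP that results closes potassium channels and starts insulin secretion. β cells are known for sending most of their pyruvate to mitochondria and little to lactate, and for shuttles that carry the reducing equivalents of glycolysis into mitochondria. The study had asked how FTO overexpression affects insulin secretion and gene expression in these cells.

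The spot signals were brought to a common distribution by quantile normalization, and all differences are FTO minus control on the log2 scale unless said otherwise. Signals in the text are the deposited spot intensities before that step. The error of a difference is the combined error that the scanner software assigns to both spots, and it covers the spots and not the cultures. A probe was called detected on an array where the scanner software had marked it as well above background, which held for 82.0% of 39417 probes on the FTO array and for 84.9% on the control array. Fto itself (NM_011936) had signals of 7301 and 5179 and a difference of 0.06 with a spot error of 0.20, and whether this probe lies inside the cloned sequence was not checked. This probe therefore does not check the labels of the arrays, and every direction is that between the array labelled FTO and the array labelled control. All 10 β cell markers were detected, among them Ins1 (difference -0.14), Ins2 (-0.24) and Iapp (-0.19), which encode the insulins and islet amyloid polypeptide. Of the 10 markers 3 were above 0 and 7 below, and the highest was Neurod1, a transcription factor of endocrine cells, with 0.36 on its brightest probe and 0.05 on the other. Of the markers for other cells, 5 of 6 for the non-β islet cells, 4 of 6 for acinar and duct cells, 3 of 4 for fibroblasts, both measured blood markers and all 3 endothelial markers were detected on 1 array or both. Gcg, the glucagon gene of α cells, was among them with signals of 257411 and 243558. None of the markers in these lists differed by 2-fold, as against 3.21% of all named genes with such a probe. The part of these markers in the results below was not tested.

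None of the 36 genes differed by 2-fold between the arrays on any of their 51 probes, all of which were detected on both arrays. Over all 18513 named genes detected on 1 array or both, 3.21% had a probe that differed by more than 2-fold. Such differences were rarer at high signal. Of the 9991 named genes with a mean log2 signal over 10, 14 had such a probe higher and 20 had one lower. That class held 34 of the 36 genes, so a count of 0 does not set them apart from genes of like signal. The probes of the 36 genes lay between -0.24 and 0.45. Taking the brightest probe of each gene, the median difference was 0.05, with 23 genes above 0 and 13 below (63.9% above). The median over all named genes was 0.006 and 51.6% of them lay above 0, and among the 9991 named genes with a mean log2 signal over 10, 53.6% lay above 0. Among the 710 named genes with a mean log2 signal over 16, as 16 of the 36 had, the median was 0.03 and 58.2% lay above 0. With 75th percentile scaling the median of the 36 genes was -0.01 and that of all named genes -0.06. In 33 of the 36 genes the difference was smaller than its spot error of 0.20 to 0.25. The exceptions were Slc2a2 at 0.45, Pgk1 at 0.23 and Aldoa at -0.22. For all members but Hk2 the spot error was 0.204, also for Pfkm with its 10 spots. The count is thus close to one at a fixed cut, and not one against an error measured for each gene.

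**Figure D1:**
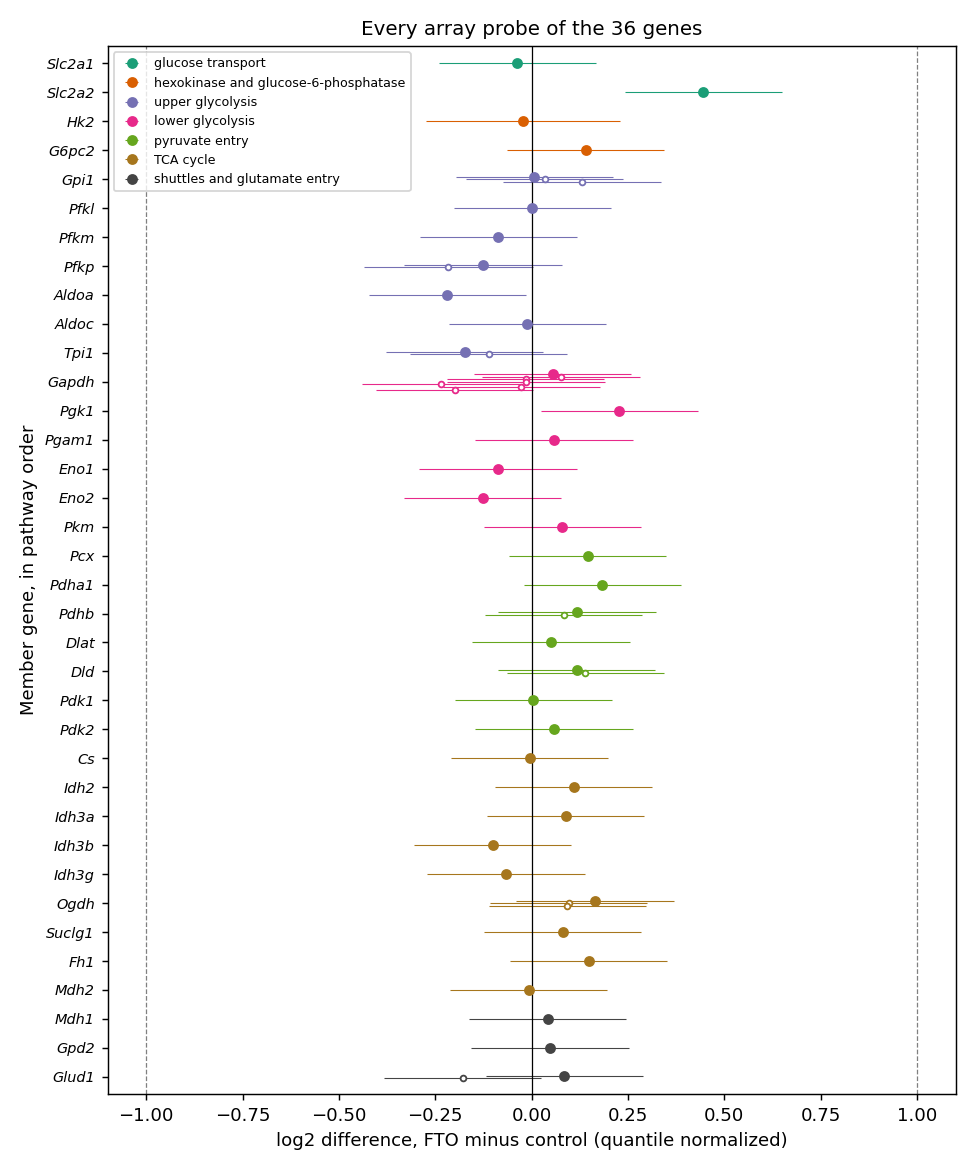
Difference between the arrays for all 51 probes of the 36 genes, on the log2 scale (FTO minus control), with genes in pathway order and colored by step. Filled points are the brightest probe of a gene, open points its other probes, lines the spot error, and dashed lines a 2-fold difference. Slc2a2 at 0.45 stands to the right of all other points, and no point reaches a dashed line.

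The precision within these arrays can be read from repeated spots and from repeated genes. Among 195 probes printed 10 times with a mean log2 signal over 10, the median SD between spots was 0.06 on both arrays, and the SD of a difference between single spots was 0.08. Different probes of a gene spread more. In 2055 genes with a pair of probes over this signal, the differences shown by the 2 brightest probes were apart by a median of 0.10, and by 0.33 at the 95th percentile.

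The signals of the glycolytic genes were high enough for the normalization to matter. Before normalization, the median difference of named probes was 0.41 at a log2 signal of 10 to 12, 0.45 at 14 to 15, 0.16 at 17 to 18 and 0.04 at 18 to 19. Of the 51 member probes, 15 lay at 17 to 18 and 2 at 18 to 19. After quantile normalization the median stayed between 0.005 and 0.03 in every band of signal. Scaling by the 75th percentile, which does not follow this trend, left medians of -0.26 at 17 to 18 and -0.39 at 18 to 19, and cyclic loess left -0.16 and -0.26. Where another scaling turned the sign of a bright member, that value is given with its step.

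**Figure D2:**
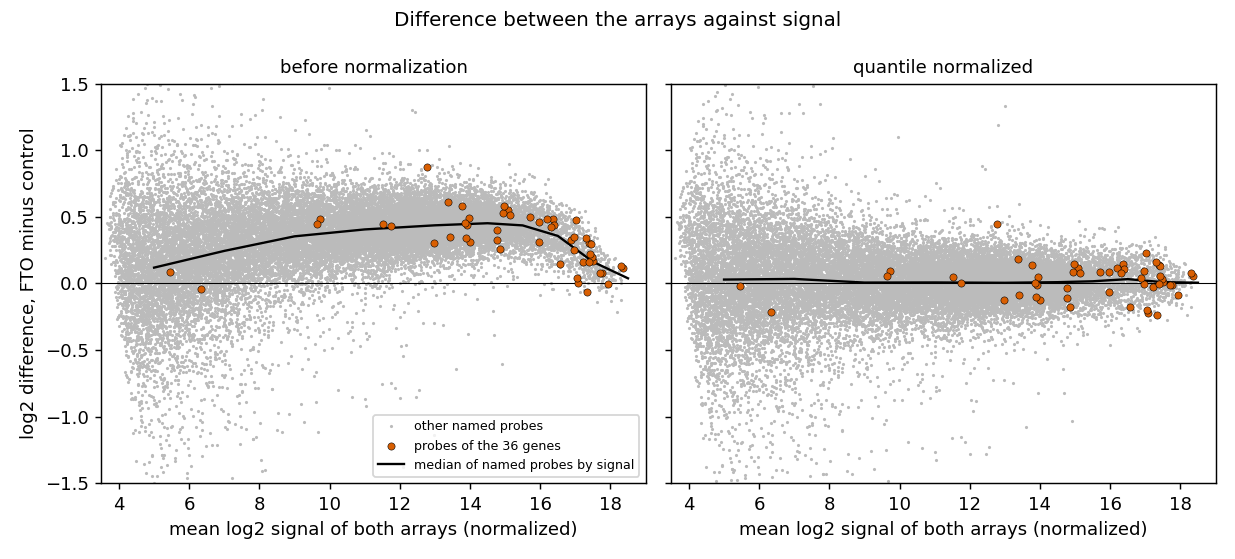
Difference between the arrays (log2, FTO minus control) against the mean log2 signal, before normalization (left) and after quantile normalization (right). Gray points are named probes well above background on both arrays, orange points the probes of the 36 genes, and the line is the median by band of signal. Probes beyond 1.5 in either direction are not shown. Before normalization the line reaches 0.45 and falls to 0.04 at the brightest signals, and afterwards it stays near 0.

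Glucose transport was represented by a pair of genes that behaved differently. Slc2a2 encodes GLUT2, the main glucose transporter of rodent β cells. Its single probe (NM_031197) had a signal of 9476 on the FTO array and 5179 on the control array, and the difference of 0.45 is 1.36-fold higher on the FTO array. Of the 3961 named genes within 1 log2 unit of its signal, 0.379% were at least as high and 0.959% were at least as far from 0. The 11 alternatives of processing gave it values from 0.38 to 0.50. This gene has no second probe on the array, and in RNA of whole cultures a difference in the number of cells of a type and in RNA per cell cannot be told apart. Slc2a1, which encodes GLUT1, the transporter of most proliferating cells, had signals of 31922 and 24152 and a difference of -0.04. Its spot lies in an area of the FTO array where dim repeated probes had lost signal, and it stood at 0.01 with cyclic loess.

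The regulatory sequences of the members with the highest differences, Slc2a2 and Pgk1, are shown as a poor and a rich case of CG dinucleotides, which mark the promoters of many housekeeping genes. Each window runs from 250 bases before to 50 bases after the annotated start of transcription in RefSeq (GRCm38.p6), 5′ to 3′ on the strand of the gene, with each CG dinucleotide in capitals. Slc2a2 lies on the plus strand at chr3:28697653-28697952 and Pgk1 on the plus strand at chrX:106186850-106187149.
Slc2a2: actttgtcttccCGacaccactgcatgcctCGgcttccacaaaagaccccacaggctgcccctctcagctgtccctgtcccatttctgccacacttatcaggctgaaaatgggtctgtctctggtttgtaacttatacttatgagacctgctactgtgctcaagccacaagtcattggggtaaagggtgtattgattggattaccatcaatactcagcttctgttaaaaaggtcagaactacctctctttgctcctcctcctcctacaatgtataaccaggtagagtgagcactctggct
Pgk1: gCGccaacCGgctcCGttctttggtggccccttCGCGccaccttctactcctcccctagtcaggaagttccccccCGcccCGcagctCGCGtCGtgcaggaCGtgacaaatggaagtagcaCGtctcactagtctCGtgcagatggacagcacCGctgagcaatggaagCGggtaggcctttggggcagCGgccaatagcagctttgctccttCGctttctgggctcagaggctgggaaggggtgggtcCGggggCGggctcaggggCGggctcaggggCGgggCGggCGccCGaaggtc

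The Slc2a2 window holds 2 CG dinucleotides and the Pgk1 window 24. A window was found for 35 of the 36 genes, and Idh3a had none in the table. Over their 54 windows the median was 19 CG dinucleotides, with a range from 0 to 51, against 7 over the 32851 windows of all genes. The letters ACGTG, the core of the site of hypoxia-inducible factors and itself with a CG, were searched on both strands. They occurred in 24 of 54 windows of the members (44.4%) and in 19.6% of all windows. Windows of a gene can overlap, as those of Ogdh do, and are then not separate counts. Counted by gene, the letters occurred in 17 of 35 members (48.6%) and in 21.8% of all genes. The longer CACGTG, which contains them, occurred in 11.1% of the windows of the members and in 7.15% of all windows. The Pgk1 window held ACGTG in 2 places and the Slc2a2 window in none. These counts describe the letters and not the binding of any factor.

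Phosphorylation of glucose was represented by Hk2, a hexokinase of high affinity, and G6pc2, the glucose-6-phosphatase of islets that opposes it. Hk2 was dim, with signals of 44.9 and 42.3 and a difference of -0.02. G6pc2 was bright, with signals of 190480 and 154726 and a difference of 0.14. With 75th percentile scaling G6pc2 stood at -0.13 and Hk2 at -0.34, and with cyclic loess they stood at -0.02 and -0.07.

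In upper glycolysis 5 of 7 genes were below 0, with a median of -0.09. The lowest of the 36 genes was Aldoa, aldolase A, which cleaves fructose 1,6-bisphosphate. Its signals were 140407 and 139782 and its difference was -0.22, a ratio of 0.860. Of the 652 named genes within 1 log2 unit of its signal, 8.13% were at least as far from 0. Aldoa lay below 0 under all 11 alternatives, between -0.42 and -0.22. Tpi1, triose phosphate isomerase, had a pair of probes at -0.17 and -0.11, with signals of 102747 and 92899 on the brighter one and of 31374 and 25076 on the other. Both probes of Pfkp, the platelet form of phosphofructokinase, were also below 0, at -0.13 with signals of 8940 and 7261 and at -0.22 with 80.2 and 82.3, the latter in an area of lost signal on the control array.

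Pfkm, the muscle form of phosphofructokinase, was the member measured on the most spots. Its 10 spots ran from 11799 to 12915 on the FTO array and from 9492 to 10293 on the control array, with an SD between spots of 0.04 and 0.03 on the log2 scale. The ranges of the raw signals do not overlap and the FTO array is higher, yet the normalized difference was -0.09. Named probes at a log2 signal of 12 to 14 had a median difference of 0.44 before normalization. Pfkl, the liver form, was at 0.002 with signals of 17500 and 12795, and its spot lies in the area of lost signal of the FTO array. Aldoc, aldolase C, was at -0.01 with signals of 17922 and 13237. Gpi1, glucose-6-phosphate isomerase, had 3 probes between 0.007 and 0.13, with signals from 159310 to 196572 over both arrays. The brightest Gpi1 probe stood at -0.26 with 75th percentile scaling and at -0.15 with cyclic loess. Aldoc turned to 0.01 and 0.03 under the same settings.

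Lower glycolysis had 4 of 6 genes above 0 and a median of 0.06, but its direction turned with the scaling, to -0.16 with the 75th percentile and to -0.10 both with cyclic loess and without normalization (relative to the median of all named genes). Pgk1, phosphoglycerate kinase, was the second highest of the 36 genes, with signals of 154994 and 111600 and a difference of 0.23, 1.17-fold. Of 674 named genes of like signal, 5.19% were at least as high and 7.57% were at least as far from 0. Its single spot lies in an area where dim repeated probes had lost signal on the control array, and the part of this in the difference was not tested. It lay above 0 in 10 alternatives, from 0.05 to 0.23, and could not be measured in the one that leaves out such areas. Pgam1, phosphoglycerate mutase, was at 0.06 with signals of 189562 and 162916, and stood at -0.21 with 75th percentile scaling and -0.10 with cyclic loess. Pkm, pyruvate kinase of muscle and proliferating cells, was at 0.08 with signals of 93082 and 69417, and at -0.002 with 75th percentile scaling. Its M1 and M2 splice forms were not told apart. Eno1, the enolase of most tissues, was at -0.09. Eno2, the enolase known from neurons and endocrine cells, was at -0.13 with signals of 18375 and 14796. Eno1 had nearly equal raw signals of 247545 and 247929, and stood at -0.43 with 75th percentile scaling and -0.31 with cyclic loess.

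Gapdh, which makes 1,3-bisphosphoglycerate and which the study used as the reference gene of its quantitative PCR, had 7 probes. Their differences lay between -0.24 and 0.08 with a mean of -0.05 ± 0.12 (SD, n = 7 probes), 2 above 0 and 5 below. The brightest probe had 351789 and 324964 and stood at 0.05, and the next had 339357 and 310040 and stood at 0.08. The lowest probe, with 161546 on the FTO array and 168575 on the control array, lies in the area of lost signal, and the next lowest, at -0.20, does not. The spread between probes of this 1 transcript was as wide as that over the 36 genes, whose SD was also 0.12. The sign of its brightest probe depended on the scaling, at -0.31 with the 75th percentile and -0.18 with cyclic loess. Gapdh has many processed pseudogenes, and whether their transcripts bind these probes was not tested.

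All 7 genes of pyruvate entry lay above 0, with a median of 0.12, and none went beyond its spot error. Pdha1 and Pdhb encode the E1 subunits of pyruvate dehydrogenase. Pdha1 had signals of 13159 and 8609 and a difference of 0.18. The pair of Pdhb probes gave 0.12 with signals of 88554 and 63434, and 0.08 with 75191 and 54526. Dlat, the E2 subunit, was at 0.05 with 3434 and 2520. Dld, the E3 subunit, gave 0.12 and 0.14 on its probes, with 42432 and 29012 on the brighter one and 17298 and 11539 on the other. The subunits of this complex were thus on the same side of 0 on each of their 6 probes. Pcx, pyruvate carboxylase, which replenishes oxaloacetate, had 39284 and 26257 and a difference of 0.15. Of the kinases that switch off pyruvate dehydrogenase, Pdk1 was at 0.004, with its spot in the area of lost signal of the FTO array, and at -0.01 with cyclic loess. Pdk2 was at 0.06 with signals of 941 and 691. The median of this step stayed above 0 under all 11 alternatives, with a low of 0.06.

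The TCA cycle had 5 of 9 genes above 0 and a median of 0.08. Cs, citrate synthase, was at -0.01 with signals of 139521 and 116944. The NAD-dependent isocitrate dehydrogenase is a complex of 3 kinds of subunit, and its genes were not on the same side of 0. Idh3a, the catalytic subunit, was at 0.09 with signals of 63730 and 45209. The other subunits were below 0, Idh3b at -0.10 with 17149 and 13514, and Idh3g at -0.07 with 71004 and 57278. Idh2, the NADP-dependent mitochondrial enzyme, was at 0.11 with 99314 and 73246. Ogdh, the first subunit of 2-oxoglutarate dehydrogenase, had 3 probes at 0.16, 0.10 and 0.09, the first with signals of 181331 and 142949 and at -0.08 with 75th percentile scaling. Suclg1, of succinyl-CoA ligase, was at 0.08 with 43083 and 30247, and Fh1, fumarase, at 0.15 with 98905 and 70819. Mdh2, mitochondrial malate dehydrogenase, closes the cycle and was at -0.01 with 180977 and 162121. Each of these values is within the spot error, and with 75th percentile scaling the median of the step was -0.08.

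Shuttles and glutamate entry comprised 3 genes, all above 0 on their brightest probe. Mdh1 of the malate-aspartate shuttle was at 0.04, with signals of 135102 and 107857, and at -0.10 with 75th percentile scaling and -0.01 with cyclic loess. Gpd2, the mitochondrial enzyme of the glycerol phosphate shuttle, was at 0.05, with 18839 and 13418. Glud1, glutamate dehydrogenase, gave 0.08 on a probe with 37648 and 26152 and -0.18 on a probe with 32350 and 27060. The probes of Glud1 are of like signal and opposite sign, so the direction of this gene is not given by the array.

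**Figure D3:**
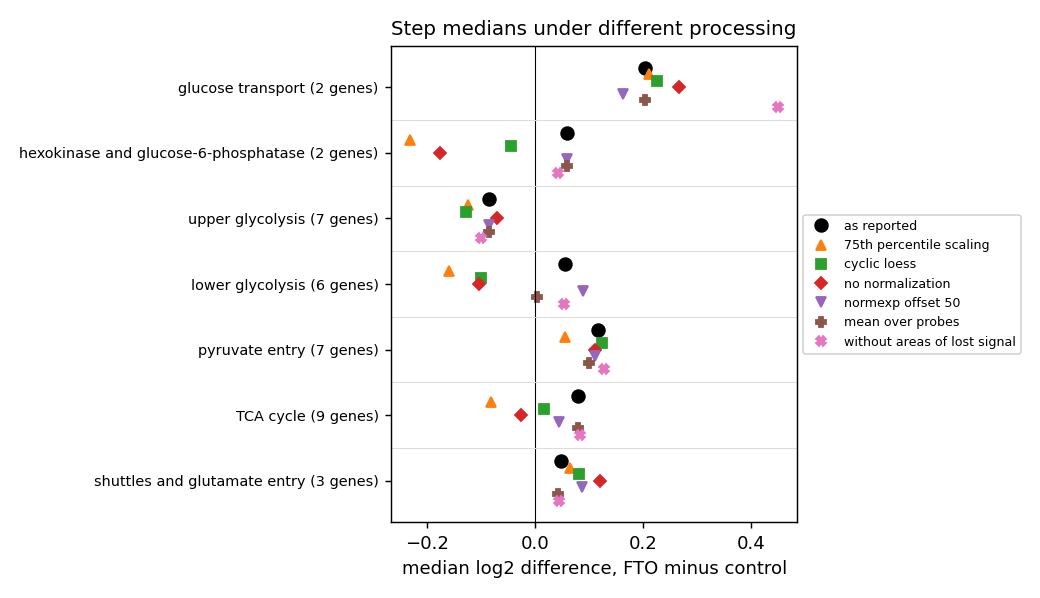
Median log2 difference (FTO minus control) of each of the 7 steps, as reported (black) and under 6 other ways of processing. Values without normalization are relative to the median of all named genes. Upper glycolysis is below 0 and pyruvate entry above 0 in each of the settings drawn, while lower glycolysis and the TCA cycle lie on both sides of 0.

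Choice of isoform could be described only by detection. Over 16 families of isoforms in the pathway with 54 genes, 50 genes were detected on both arrays. Slc2a10, Ldhc and Pdk4 were detected on neither array, and Slc2a12 had no named probe. Genes whose use is mostly in other tissues were detected as well. The testis-type Pgk2 had signals of 36.8 and 51.4, and the liver-type Pklr had 216 and 164. Beside them stood 93082 and 69417 for Pkm. Detection at such dim signals does not show which isoform a cell uses, and signals of different probes are not levels of their transcripts. The 3 probes of Ogdh, all with the same accession, had 181331, 144207 and 1002 on the FTO array, a ratio of 181 between the brightest and the dimmest, and those of Pfkp differed by a ratio of 112. For these probe pairs the differences between arrays were alike, 0.16 and 0.09 in Ogdh and -0.13 and -0.22 in Pfkp. Other genes with unequal probes varied. Adpgk, with a ratio of 46.3, gave 0.15 and 0.06, and Pfkfb3, with a ratio of 74.4, gave -0.09 and 0.28.

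A further 75 genes of the same pathways were listed by their place in the pathway and examined in the same way. Of these 74 had a named probe and 71 were detected. None of the 71 differed by 2-fold on its brightest probe, where 3.21% of all named genes had a probe beyond 2-fold. The median of the 71 was 0.05, with 43 above 0 and 28 below. Pck1, of gluconeogenesis, was the highest at 0.64 and Pgk2 the lowest at -0.59. Both were dim, with 23.5 and 14.7 for Pck1, and both lie in the area of lost signal. The 8 detected genes of pyruvate entry in this list had a median of 0.14 and 6 lay above 0. Among them was Mpc1, a subunit of the mitochondrial pyruvate carrier, at 0.15 with signals of 138963 and 103236 and at 0.11 on its other probe. Pdhx, which anchors the E3 subunit, was at 0.16. Pdk3, a further kinase of the complex, was at 0.27 with its spot in that area. The 10 detected genes of the TCA cycle in this list had a median of 0.04, with 7 above 0. Sdhc, a membrane subunit of succinate dehydrogenase, was the highest at 0.23, again in the area of lost signal, while Sdha, Sdhb and Sdhd were at 0.02, 0.05 and 0.04. The other probe of Sdhb was at -0.16, with signals of 27761 and 22808. Other steps of this list did not follow the members. Its 8 detected genes of upper glycolysis had a median of 0.09 with 5 above 0, where the members had -0.09. Its 9 of hexokinase and glucose-6-phosphatase had -0.09 against 0.06, and its 7 of glucose transport -0.01 against 0.20. Lower glycolysis in this list had a median of 0.03, with 4 of 6 above 0. Shuttles and glutamate entry had 0.04, with 12 of 18 above 0.

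The glucose transporters outside the 36 genes stood on both sides of 0, and none was as high as Slc2a2. Slc2a5, which carries fructose, was at 0.16 with 100728 and 71336 in the area of lost signal. Slc2a9, a urate carrier, was at 0.30 with 419 and 275. Slc2a3, a transporter of high affinity, was at -0.02 with 2362 and 1839. Among the enzymes that make or remove glucose 6-phosphate, Hk1 was at -0.22 on its brightest probe and -0.02 on the other, and G6pc3, the widely expressed glucose-6-phosphatase, was at -0.20, in an area of lost signal on the control array, and -0.24. Hk3 was at 0.40, but dim with 56.8 and 39.7.

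Lactate formation was described by 5 detected genes with a median of -0.03. Ldha, the lactate dehydrogenase that is normally low in β cells, had 3 probes below 0. The dimmer pair gave -0.37 and -0.46, with signals of 14130 and 13424 and of 7653 and 7776, and the brightest, with 172868 and 158114, gave -0.03. Slc16a1 and Slc16a3, which encode carriers of lactate and pyruvate, were at -0.24 and -0.16 on their brightest probes. Ldhb, the other main subunit of the enzyme, was at 0.16 with 4524 and 3014, and the dim Slc16a7 was at 0.46 with 83.4 and 54.2, so the genes of this step were not on the same side of 0.

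Targets of regulators known to act on this pathway showed no 2-fold difference either. Over all named genes 3.21% had a probe with such a difference and 51.6% lay above 0. A count of 0 in lists of this size therefore does not set these targets apart. Of 17 tested targets and partners of hypoxia-inducible factor 1 outside glycolysis, 9 were above 0 and 8 below, with a median of 0.01 and a range from -0.27 for Ddit4 to 0.14 for Kdm3a. Of 12 targets and partners of the carbohydrate response element, 8 were above 0 and 4 below, with a median of 0.06. These ranged from -0.19 for Klf10 to 0.15 for Me1.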

How the data were processed

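Total RNA of MIN6 cells transduced with the FTO vector or the empty vector was labelled with Cy3 and hybridized to 1 Agilent array each. The authors deposited spot tables from Feature Extraction 11.0.1.1, whose intensity values were corrected for background and spatial trend and were not normalized between arrays. The deposited spot tables also hold flags of other kinds per spot (well above background, saturated, outlier). The authors also deposited log2 values of 33870 probes, quantile normalized by GeneSpring. For the 51 probes used here, the FTO minus control differences from those values departed by less than 0.001 from the differences given here. No spot was saturated, and 148 and 141 outlier spots were left out.

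Spots were averaged per probe on the log2 scale and brought to equal quantiles (R 4.3.3, limma 3.58.1). The remaining work was done with Python 3.11.15, pandas 2.3.3, numpy 2.4.6 and matplotlib 3.10.9. Probes were named through RefSeq accessions of GRCm38.p6 (27224 of 39417). Probe positions are not given because the array was designed on another assembly. A probe counted where detected on 1 array or both (for probes printed 10 times, on 50% of spots), and as different beyond 2-fold. The probe with the highest mean signal stood for a gene. Areas of lost signal are 6 of 35 blocks on the FTO array, and 2 on the control array, where at least 15% of repeated spots lay 0.5 below the median of their probe. Of the 399 probes printed 10 times, only 79 were used for this. These had a median log2 signal of 4.5 to 8 on the control array. Whether brighter probes, as most of the members are, lost signal in these areas was not tested. The processing was tested on simulated arrays with planted differences over 2-fold and the same shift between arrays at all signals. That simulation does not cover differences as small as those of the members, nor the trend with signal. There were 11 alternatives, with normexp on median signals since the tables hold no mean signal. The members and lists were chosen with earlier results of these data known. Named are all 36 members, isoforms by detection, and any pathway gene with a 2-fold difference. Other genes named by value (such as Ldha, Mpc1 and the ends of each list) were chosen after their values were seen. Some genes of these lists are not reported here by name.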

Additional observations from a re-analysis of the deposited data

How the results depend on the processing

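The count of 0 member genes with a 2-fold difference was also 0 under each of the 11 alternatives, and the median of the 36 genes moved by less than 0.1 under each. Of 392 values of single members under the alternatives, 375 moved by less than the spot error of the gene and 17 by more. Without normalization the median of all named genes was 0.37, and values of that setting are relative to it. The median of hexokinase and glucose-6-phosphatase (0.06 as reported) was -0.232 with 75th percentile scaling, -0.0453 with cyclic loess and -0.18 without normalization. That of lower glycolysis (0.06) was -0.16, -0.10 and -0.10 under the same settings in that order. That of the TCA cycle (0.08) was -0.0817 with 75th percentile scaling and -0.0262 without normalization. Leaving out the areas of lost signal on either array took away 4 of the 36 genes, Slc2a1, Pfkl, Pdk1 and Pgk1, the second highest, so glucose transport stood at 0.45 on Slc2a2 alone. The cause of the trend with signal behind the scalings was not tested. No paired analysis was possible because there is 1 array per condition, and for the same reason no replicate could be left out.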
